A study of Mus musculus with 4 samples.

Results

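The 10 genes described here encode signals and hormones that Sertoli cells, the nurse cells of the seminiferous tubule, send out or respond to: Gdnf, Kitl, Amh, Inha, Inhba, Inhbb, Fshr, Dhh, Shbg and Cxcl12. They were chosen by symbol, and every array probe whose RefSeq accession belongs to one of them was taken. This gave 14 of the 41174 probes on the array, for 10 of the 16358 genes that could be named. Kitl, Inha, Inhbb and Cxcl12 had more than 1 probe and the other 6 genes had 1 each. All 14 probes were well above background on all 4 arrays, so none entered the comparison through 1 group alone.

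The samples were testes of male mice at postnatal day 7 that carried Tg-Nanos2 enhancer-3xFLAG-Nanos2-3'UTR, a transgene in which the Nanos2 enhancer drives NANOS2 with a FLAG tag. NANOS2 binds RNA and is made by germ cells of the male. RNA recovered with the FLAG tag (FLAG IP, 2 arrays) was compared with RNA of the starting testis material (Input, 2 arrays) on single-colour Agilent arrays. Input and FLAG IP carry the same transgene, and an immunoprecipitate of untagged testis was not analysed here, so that a change gives a share in the FLAG IP and not binding. The design text calls the duplicates biological, but the labels name no animals or pools, and p-values measure only the spread between these arrays.

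In the neonatal testis the Sertoli cell is the main somatic partner of the germ cell. GDNF, acting through the receptors GFRA1 and RET, maintains spermatogonial stem cells, KIT ligand supports spermatogonia that carry the receptor KIT, and the chemokine CXCL12 acts on cells that carry CXCR4. Anti-Müllerian hormone and the inhibin and activin subunits belong to the TGF-beta superfamily, FSHR receives follicle-stimulating hormone from the pituitary, DHH signals to Leydig and peritubular cells, and SHBG is the androgen-binding protein. Not all of these transcripts are exclusive to Sertoli cells. Inhibin subunits are also made by Leydig cells, GDNF also by peritubular myoid cells, and Kitl and Cxcl12 also by other somatic cells.

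Each level below is a log2 signal minus the log2 of its array's 75th percentile, and a change is FLAG IP minus Input on that scale. Between 66.3% and 68.4% of probes were well above background on an array. All 4 arrays were on 1 slide and in 1 scan, and their number limits the precision. Sertoli markers outside the 10 genes, including Sox9, Wt1 and Gata4, were matched for 28 genes. All 28 were well above background on both Input arrays and 27 on both FLAG IP arrays. Detection of these markers in whole testis does not show which cells gave the signals of the 10 genes. In these bulk samples a transcript's level does not tell the number of cells of a type from the RNA per cell, which cannot be told apart.

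Transcripts of 5 of the 10 genes made up a smaller share of the FLAG IP than of the Input on at least 1 probe, and those of Gdnf, Kitl, Inhba, Fshr and Dhh were not called. The probes of Amh, Inha (both probes), Shbg, the brighter probe of Inhbb and the Cxcl12 probe of transcript NM_021704 fell, by 1.45-fold to 2.47-fold, and no probe was called higher. Tested by the brightest probe of each gene, 4 of the 10 genes were lower, where 21.3% of all probes so tested were lower and 15.8% higher. Cxcl12 was not among these, as its brighter probe, of transcript NM_013655, was not called. In all, 6 of 14 probes were lower at an adjusted p under 0.05 (limma, Benjamini-Hochberg over 27830 tested probes), where 20.1% of all tested probes were lower and 15.6% higher. At an unadjusted p under 0.05, 9 member probes were lower and 0 higher, where 28.4% of all tested probes were lower and 20.4% higher. The median change over the 14 probes was −0.56, against −0.13 over all tested probes. The FLAG IP and Input arrays did not overlap for 10 probes in the lower direction and 1 in the higher, where 43.3% and 30.5% of all tested probes did so. Without Input replicate 1 or without Input replicate 2, 0 member probes were called in limma, with 5 and 3 at an unadjusted p under 0.05. The lone Input array is then assumed to vary like the FLAG IP arrays, whose replicate differences had a wider SD over probes (0.47 against 0.33), and calls over all probes fell as well, to 775 and 641 lower. The changes of the 6 called probes were −1.39 to −0.49 without Input replicate 1 and −1.22 to −0.53 without Input replicate 2, and the median over the 14 probes was −0.51 in both.

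**Figure D1:**
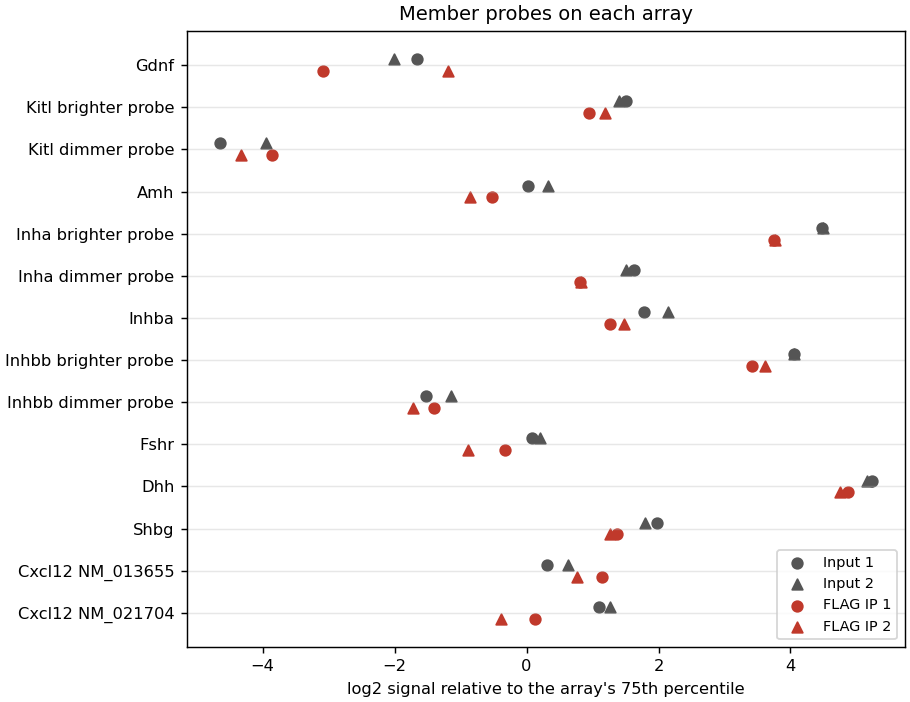
Level of each of the 14 probes on each array, as log2 signal relative to the array's 75th percentile; grey points are Input, red points FLAG IP, circles replicate 1 and triangles replicate 2. Levels may be compared between arrays within a row and not between rows. Amh, both Inha probes, Shbg and Dhh lie to the left in both FLAG IP arrays, the Gdnf arrays are spread from −3.08 to −1.18 within the FLAG IP, and the probes of Cxcl12 lie on opposite sides of their Input arrays.

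Of the stem cell signals, Gdnf, the growth factor on which spermatogonial stem cells depend, gave no common answer in the FLAG IP arrays. Its level was −1.65 and −2.01 in Input replicates 1 and 2, and −3.08 and −1.18 in FLAG IP replicates 1 and 2. One FLAG IP array thus lay below both Input arrays and the other above both. The change was −0.30 ± 0.64 (SE, n = 2 arrays per group, adjusted p = 0.73, limma), with a 95% interval from −1.97 to 1.37. The FLAG IP replicates differed by 1.90, and 149 of the tested probes (0.535%) differed between these replicates by at least as much. Without FLAG IP replicate 1 the change was 0.65 (adjusted p = 0.083), and without FLAG IP replicate 2 it was −1.25 (adjusted p = 0.020). The spot was not marked as an outlier, and its raw signal was 2.61 times the local background in FLAG IP replicate 1 against 8.45 times in replicate 2.

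Kitl, the ligand of KIT, was measured by a probe printed 10 times on every array, which shows the measurement error within an array. The mean level was 1.51 and 1.40 in the Input arrays and 0.95 and 1.20 in the FLAG IP arrays, with an SD over the 10 spots of 0.034 to 0.064. The highest FLAG IP spot, at 1.29, was below the lowest Input spot, at 1.36. The spots repeat the measurement within an array and add no replicates to the arrays of a group. The FLAG IP arrays also stood apart from each other by more than the spread over spots. The change of −0.39 ± 0.16 was not called (adjusted p = 0.12, limma), with an interval from −0.80 to 0.03. The other Kitl probe was dim, at 2.54 to 3.46 times local background, with levels of −4.65 and −3.95 in the Input and −3.86 and −4.33 in the FLAG IP. Its groups overlapped and its change was 0.21 ± 0.30 (adjusted p = 0.62).

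**Figure D2:**
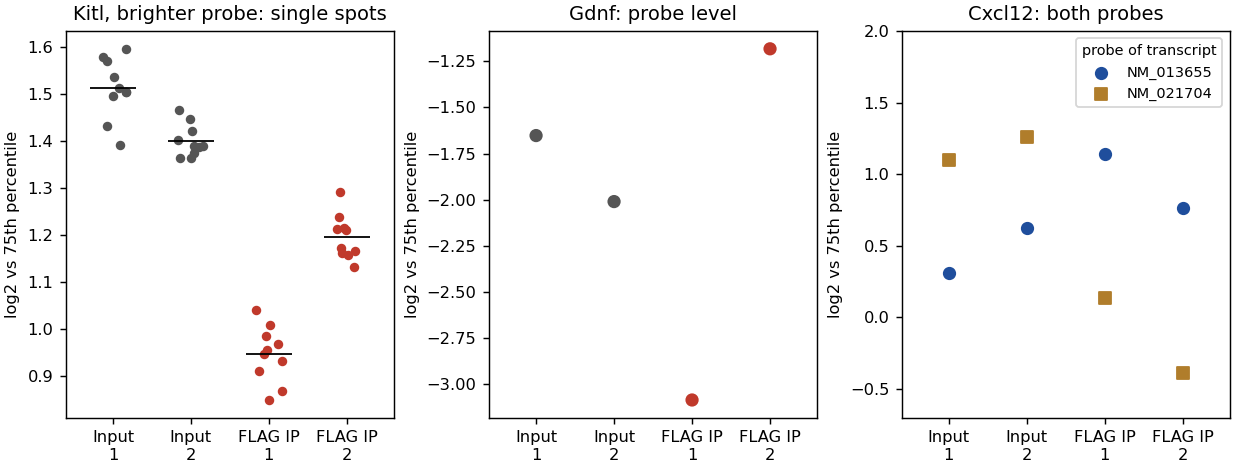
Left, the 10 single spots of the brighter Kitl probe on each array with their mean as a line; middle, the Gdnf probe; right, both Cxcl12 probes, named by their transcript. The vertical axes are log2 signal relative to the array's 75th percentile, grey is Input and red FLAG IP, and in the right panel blue circles are NM_013655 and ochre squares NM_021704. All FLAG IP spots of Kitl lie below all Input spots, the Gdnf value of FLAG IP replicate 1 (−3.08) is the lowest and that of replicate 2 (−1.18) the highest, and the Cxcl12 probes change in opposite directions.

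Of the hormones of the TGF-beta superfamily, Amh, Inha and the brighter Inhbb probe fell, and Inhba and the dimmer Inhbb probe did not pass the test. Amh encodes anti-Müllerian hormone, which removes the Müllerian duct in the male fetus and is made by immature Sertoli cells. Its level was 0.03 and 0.33 in the Input arrays and −0.53 and −0.85 in the FLAG IP arrays, and both FLAG IP arrays lay below both Input arrays. It fell by 0.87 ± 0.20 on the log2 scale (SE, adjusted p = 0.030, limma), a 1.83-fold difference. Without a filter on dim probes (adjusted p = 0.064) or without FLAG IP replicate 2 (−0.71, adjusted p = 0.055) it was not called.

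Inha, the alpha subunit that turns a beta subunit into inhibin, the hormone that restrains FSH, gave nearly equal values in the FLAG IP replicates and fell on both of its probes. Its brighter probe read 4.48 and 4.49 in the Input and 3.76 and 3.76 in the FLAG IP, and its dimmer probe 1.64 and 1.50 against 0.81 and 0.83. On both probes the groups did not overlap. The changes were −0.72 ± 0.13 (adjusted p = 0.019, limma) and −0.75 ± 0.14 (adjusted p = 0.020), and they differed by 0.024 ± 0.12 (adjusted p = 0.92 over 6643 pairs of probes of the same gene). Quantile normalization lowered the size for the brighter probe to −0.51 (adjusted p = 0.047).

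The beta subunits make inhibin with the alpha subunit and activin with each other. Inhbb, the beta B subunit, read 4.05 and 4.06 in the Input and 3.41 and 3.62 in the FLAG IP on its brighter probe, a fall of 0.54 ± 0.15 (adjusted p = 0.048). This call lay next to the threshold and ended under quantile normalization (−0.35, adjusted p = 0.11), scaling to the median (−0.53, adjusted p = 0.055), no filter on dim probes (adjusted p = 0.070) and without FLAG IP replicate 1 (−0.44, adjusted p = 0.092). The dimmer Inhbb probe read −1.52 and −1.14 against −1.41 and −1.72, so its groups overlapped, and had a change of −0.24 ± 0.21 (adjusted p = 0.41). The changes of the probes of Inhbb differed by −0.30 ± 0.24 (adjusted p = 0.46), and the mean over the probes was not called (−0.39, adjusted p = 0.098). Inhba, the beta A subunit, read 1.77 and 2.14 in the Input and 1.26 and 1.48 in the FLAG IP. Its groups did not overlap, and the change of −0.59 ± 0.19 missed the threshold (adjusted p = 0.072), with an interval from −1.09 to −0.08.

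Of the transcripts for hormone reception and androgen transport, Fshr had a change close in size to that of Inha but a wider spread. Fshr encodes the Sertoli cell's receptor for FSH and read 0.08 and 0.21 in the Input and −0.32 and −0.89 in the FLAG IP. Both FLAG IP arrays were lower than both Input arrays, and the change was −0.75 ± 0.23 (adjusted p = 0.061, limma), with an interval from −1.35 to −0.15. Without FLAG IP replicate 1 it was called (−1.03, adjusted p = 0.019), and without replicate 2 it was not (−0.47, adjusted p = 0.085). Shbg, the androgen carrier, read 1.98 and 1.80 in the Input and 1.37 and 1.26 in the FLAG IP. It fell by 0.58 ± 0.15 (adjusted p = 0.041), a 1.49-fold difference with no overlap of groups. It lost its call without a filter on dim probes (adjusted p = 0.064) and without FLAG IP replicate 1 (adjusted p = 0.054) or 2 (adjusted p = 0.076).

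Dhh, the hedgehog ligand by which Sertoli cells act on Leydig and peritubular cells, read 5.23 and 5.17 in the Input and 4.88 and 4.75 in the FLAG IP. The groups did not overlap, and the change of −0.39 ± 0.14 was not called (adjusted p = 0.093, limma), with an interval from −0.76 to −0.02. The value moved with the normalization: under quantile normalization the change was −0.021 (adjusted p = 0.92).

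Cxcl12 showed the largest change of the 10 genes and at the same time the only change above 0 with groups that did not overlap. The gene encodes the chemokine that attracts and retains CXCR4-bearing cells, and 2 of its 3 curated RefSeq mRNAs had a probe. The probe of transcript NM_021704 read 1.10 and 1.26 in the Input and 0.13 and −0.39 in the FLAG IP, and fell by 1.31 ± 0.22 (SE, adjusted p = 0.016), or 2.47-fold. The probe of transcript NM_013655 read 0.31 and 0.63 in the Input and 1.14 and 0.77 in the FLAG IP. Here both FLAG IP arrays lay above both Input arrays, and the change of 0.49 ± 0.21 was not called (adjusted p = 0.13), with an interval from −0.06 to 1.03.

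The difference between the changes of these Cxcl12 probes was tested within arrays, where array scaling cancels. It was 1.79 ± 0.13 (adjusted p = 0.024, limma over 6643 pairs of probes of the same gene, of which 9.84% differed), and 108 pairs (1.63%) differed by at least as much. This test was added after the values of the Cxcl12 probes had been seen. The difference lay between 1.63 and 1.87 under every setting run, namely quantile normalization, normexp background correction, the deposited value table and each array left out. It was not called without Input replicate 1 (adjusted p = 0.19), Input replicate 2 (adjusted p = 0.18) or FLAG IP replicate 1 (adjusted p = 0.054), settings in which 0 pairs of any gene were called. Averaging the probes gave −0.41 (adjusted p = 0.19), a value that neither probe showed. Probe sequences were not used here, so which further transcripts each probe can bind is not known.

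**Figure D3:**
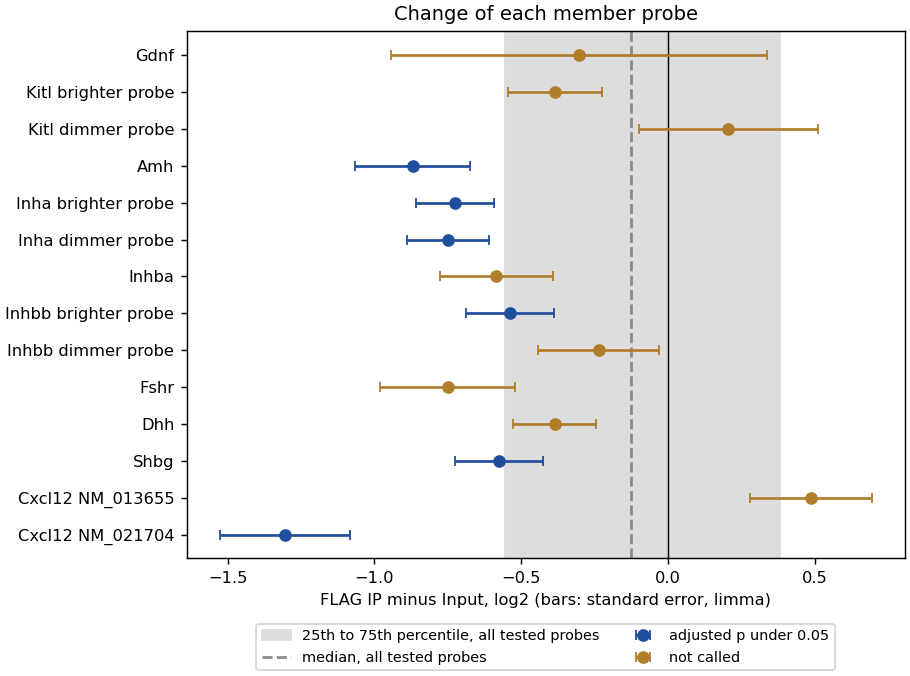
Change of each probe, FLAG IP minus Input in log2, with the limma standard error as a bar; blue points had an adjusted p under 0.05 and ochre points were not called. The grey band spans the 25th to the 75th percentile of all tested probes (−0.55 to 0.38) and the dashed line is their median (−0.13). Amh, Inha, Fshr, Shbg, Inhba and the Cxcl12 probe of NM_021704 lie below the band, and the Cxcl12 probe of NM_013655 lies above it.

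A scaling to spike-in control spots moved the median of all tested probes by −0.98, and the share of all calls that were higher from 43.7% to 3.91%. Under it 12 member probes were called lower and all 14 changes were below 0, among them NM_013655 of Cxcl12 (−0.49) and the dimmer Kitl probe (−0.77). Relative to that shift, every change is the one given above. Directions here therefore describe shares of the RNA on an array and not amounts. The labels give the same mass of RNA for labelling in every sample, so the spike-in scaling does not give the amount recovered either.

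**Figure D4:**
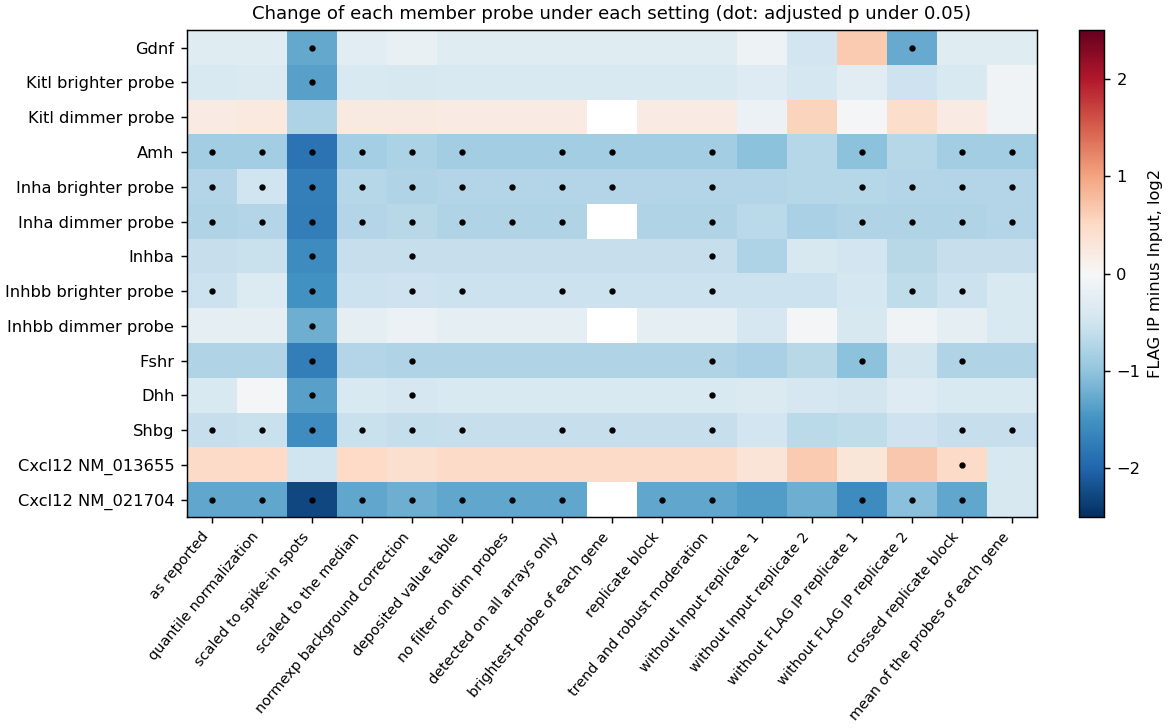
Change of each member probe (rows, FLAG IP minus Input in log2, blue lower and red higher) as reported and under each other setting (columns); a dot marks an adjusted p under 0.05 and a white cell a probe that the setting does not use. Dots are absent without either Input array, the spike-in column is the darkest, and Gdnf changes sign with the FLAG IP array that is left out.

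The partners of these signals did not share 1 direction. The lists named here were counted with the brightest probe of each gene, beside a background over all named genes of 18.6% lower and 16.0% higher. In the list for GDNF and KIT ligand signalling 10 of 23 genes were higher and 0 lower, with a median of 0.45. Under spike-in scaling 2 were higher and 11 lower (median −0.52). Over probes well above background on all 4 arrays, which leaves out Ret and Artn, 8 of 21 genes were higher and 0 lower. Without Input replicate 1 or 2 the list had 2 or 3 genes higher, and its median was 0.20 without Input replicate 2, 0.18 without FLAG IP replicate 2 and 0.037 over the genes detected on all arrays. Without FLAG IP replicate 1, 9 were higher and 3 lower. Gfra1, the GDNF-binding receptor, read −2.42 and −2.16 in the Input and −0.84 and −1.10 in the FLAG IP, a rise of 1.32 ± 0.18 (adjusted p = 0.010, limma). Its other probe had a change of 1.02 (adjusted p = 0.13). Ret, the signalling receptor, lay within the background of both Input arrays and was 2.3-fold higher than a floor taken for the Input. Ret passed the filter through the FLAG IP alone. Its adjusted p of 0.018 (limma) belongs to the measured change of 1.62, which rests on Input signals within background, and not to the 2.3-fold. Such a fold compares the FLAG IP mean with a floor in the Input, per array the larger of the measured signal and the dimmest one detected. Some undetected probes lay above the dimmest detected one, so the fold is not a strict minimum. For a gene within the background of both FLAG IP arrays the groups are exchanged. The further genes with the largest changes were Lhx1 (4.14) and Bcl6b (2.39), transcription factors induced by GDNF, Etv5 (1.02) and the adaptor Grb2 (0.96, or −0.020 under spike-in scaling). Kit, the receptor for KIT ligand, read 0.95 and 1.18 against 0.36 and 0.68, with a change of −0.55 ± 0.19 that was not called (adjusted p = 0.079).

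Among genes of the AMH, inhibin and activin pathway 5 of 22 were higher and 2 lower, with a median of 0.18. Under spike-in scaling 3 were higher and 10 lower (median −0.80), and without Input replicate 2 the median was 0.099. Over probes well above background on all 4 arrays 4 of 19 genes were higher and 2 lower. Amhr2, the receptor for anti-Müllerian hormone, read 5.83 and 5.81 in the Input and 5.25 and 5.22 in the FLAG IP, and fell by 0.59 ± 0.13 (adjusted p = 0.031, limma), as did its ligand. Fst, follistatin, which binds and blocks activin, went the other way: it read −2.36 and −1.89 in the Input and 0.21 and −0.35 in the FLAG IP, a rise of 2.06 ± 0.27 (adjusted p = 0.0097). The activin receptor Acvr2a rose by 0.75 ± 0.17 (adjusted p = 0.032), though its other probe had −0.33 (adjusted p = 0.16) and spike-in scaling turned it to −0.23. Acvr2b (0.72, or −0.26 under spike-in scaling), Acvr1b (−0.38), the inhibin co-receptor Tgfbr3 (−0.68) and Fstl3 (−0.15) were not called. The type I receptor Bmpr1b, also within the Input background, passed the filter through the FLAG IP alone and read 20.6-fold higher. Its Input signals exceeded the dimmest detected ones, so this fold divides by undetected signals. It is neither a lower bound nor a precise size. Acvr1c rose by 1.91 from an Input above background on 1 array. Smad4, the shared signal transducer, rose by 0.90 (−0.079 under spike-in scaling) and Acvr1 fell by 0.85.

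In the hedgehog list 1 of 14 genes was higher and 3 lower, with a median of −0.31 (0 higher and 10 lower under spike-in scaling). With single arrays left out this median ran from −0.45 without FLAG IP replicate 1 to −0.14 without Input replicate 2. The receptors and readouts of DHH signalling Ptch1 (0.13, or −0.85 under spike-in scaling), Smo (−0.28, with 0.23 on another probe that became −0.75 under spike-in scaling) and Gli1 (−0.50) were not called. Hhip, which binds hedgehog ligands and limits their range, read −0.90 and −0.69 against −1.54 and −1.80 and fell by 0.88 ± 0.17 (adjusted p = 0.022, limma). Gas1, a hedgehog co-receptor, fell by 1.01 and Disp1, needed for ligand release, by 0.56 (other probe −0.17, not called), while the co-receptor Cdon rose by 0.79 (−0.19 under spike-in scaling). In the CXCL12 list 2 of 13 genes were higher and 1 lower, with a median of −0.14, which was −1.12 under spike-in scaling (0 higher and 8 lower), 0.10 under normexp and −0.29 without FLAG IP replicate 2. Cxcr4, the receptor of CXCL12, read −3.72 and −3.60 in the Input and −2.22 and −2.34 in the FLAG IP, a rise of 1.38 ± 0.14 (adjusted p = 0.0067), and its other probe rose by 0.96 (adjusted p = 0.018), which was −0.013 under spike-in scaling. The scavenger receptor Ackr3 had a change of −0.26 and was not called, the chemokine Cxcl10 rose by 1.13 and Rgs2, a regulator of G-protein signalling, fell by 0.59.

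Of the FSH response list 6 of 23 genes were lower and 3 higher, with a median of −0.23. Under spike-in scaling 17 were lower and 0 higher, and under normexp the median was −0.032. Over probes well above background on all 4 arrays 5 of 20 genes were lower and 2 higher. The transducing G protein Gnas gave −1.34 on its brightest probe but 1.58 on another, both called, at a locus with several overlapping transcripts, so it has no single direction here. Lhcgr, the receptor for luteinizing hormone on Leydig cells, lay within the background of both FLAG IP arrays. The floor taken for the FLAG IP was 1.76-fold below its Input mean, which is not a strict minimum. Lhcgr passed the filter through the Input alone and is also in the Leydig list. The transcription factors Fos and Creb1 rose, Fos by 1.37 and Creb1 by 1.1 on its brightest probe. The other Creb1 probes had 0.53 (not called, and −0.45 under spike-in scaling) and 1.33. Nr5a1, a nuclear receptor of steroidogenic and Sertoli cells, had −0.49 (adjusted p = 0.088, limma). In the list for androgen carriage and response 5 of 14 genes were lower and 0 higher, with a median of −0.52. With the replicate number as a block 2 were lower. The median was −0.54 without Input replicate 1 and −0.44 without Input replicate 2. Hsd17b3, a testosterone-making enzyme of Leydig cells in the adult and of Sertoli cells in the fetus, fell by 0.91. The dopamine receptor Drd4 fell by 0.90, the coactivator Ncoa1 by 0.88 and the tubulin Tubb3 by 0.80. Hsd17b3 is also in the Leydig list and Tubb3 in the Sertoli list, and 7 genes were in more than 1 list. Of other niche signals 7 of 24 were lower and 4 higher, with a median of −0.40. This median was −0.099 under quantile normalization and −0.16 without FLAG IP replicate 2 (4 lower and 5 higher), and under spike-in scaling 18 were lower and 1 higher. Igf1 fell by 1.17, whereas the growth factors Hbegf (1.89) and Pdgfb (1.58) and the Notch ligand Dll1 (1.30) rose.

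**Figure D5:**
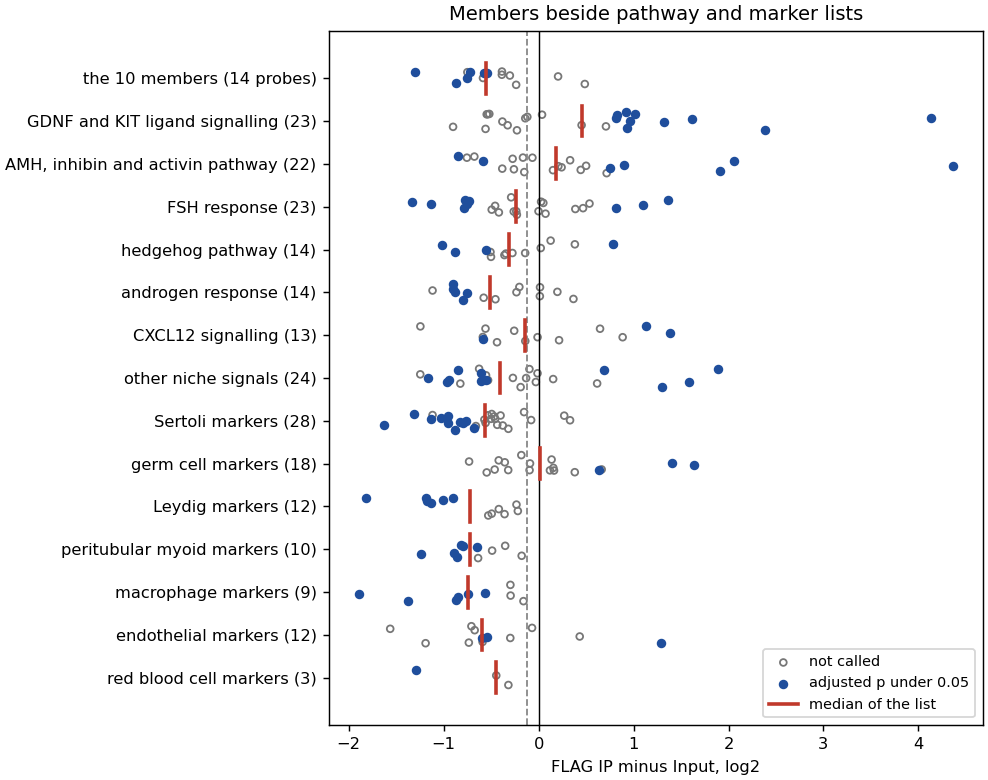
Change in log2, FLAG IP minus Input, of the 14 member probes and of the brightest probe of every tested gene in each pathway and marker list, with the number of points in brackets. Filled points had an adjusted p under 0.05, open points were not called, red bars are medians and the dashed line is the median of all tested probes (−0.13). The median of the members (−0.56) lies among those of the androgen response (−0.52), Sertoli (−0.56) and endothelial (−0.59) lists. The GDNF and KIT ligand signalling list extends to the right. The lists share genes, with 7 genes in more than 1 list.

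Among markers of somatic cells the share called lower was above the background of 18.6% for the Sertoli, Leydig, peritubular myoid and macrophage lists and below it for the endothelial list, differences that were not tested. With the replicate number as a block in the fit, 6 Sertoli, 5 Leydig, 1 peritubular myoid and 3 macrophage markers were lower. In that fit 9.71% of all tested probes were lower. The Sertoli median was −0.46 without Input replicate 1 and −0.66 without Input replicate 2. Of 28 Sertoli markers 11 were lower and 0 higher, with a median of −0.56, and the summed level of the list, on the linear scale in units of the 75th percentile, was 319 to 360 in the Input and 218 to 233 in the FLAG IP. Of markers picked after their values were seen, Sox9, the transcription factor that directs Sertoli cell fate, fell by 0.88 (adjusted p = 0.021, limma) with −0.74 and −0.23 on its other probes, while Wt1 (−0.38) and Gata4 (−0.56) were not called. Of 12 Leydig markers 6 were lower and 0 higher, with a median of −0.72 (−1.11 without Input replicate 2) and summed levels of 36.1 to 47.2 against 18.2 to 22.7. Of 10 peritubular myoid markers 6 were lower and 0 higher, with a median of −0.72 and summed levels of 128 to 141 against 84.6 to 85.2, and of 9 macrophage markers 6 were lower and 0 higher, with a median of −0.74 and summed levels of 14.2 to 15.0 against 9.27 on both FLAG IP arrays. The endothelial list had 2 of 12 lower and 1 higher (5 lower without FLAG IP replicate 1 and 0 without replicate 2), a median of −0.59 and summed levels that overlapped between the groups, and the red blood cell list 1 of 3 lower and 0 higher, with a median of −0.45 and summed levels of 18.9 to 29.1 against 8.79 to 11.3.

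Germ cell markers had 3 of 18 higher and 0 lower, with a median of 0.015 (9 lower and 0 higher, median −0.96, under spike-in scaling) and summed levels of 165 to 177 in the Input and 167 to 212 in the FLAG IP. Without FLAG IP replicate 2 the list had 3 lower and 3 higher and a median of −0.14, and without FLAG IP replicate 1 a median of 0.24. Over all 14 lists 53 of 217 genes were lower and 29 higher, and without Input replicate 1 these were 3 and 7, and without Input replicate 2 they were 4 and 9. The markers not well above background on any array were Ces1d of the Leydig, Itgam of the macrophage and Epb42 of the red blood cell list. The part of these cell type differences in the changes of the members was not tested.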

How the data were processed

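Per the file headers, single-colour (Cy3) arrays were scanned and spot intensities extracted with Agilent Feature Extraction 9.5 (release from the submitters' processing notes), which gives a background-subtracted processed signal. The authors' deposited table holds log2 values, which equalled log2 of that signal less a constant per array within 0.01 for 99.6% of probes, so that every 75th percentile was 9.76. Median values were 6.18 and 6.25 for the Input columns and 6.25 and 6.15 for the FLAG IP columns. Its software and the immunoprecipitation steps are not given in the sources used here. A description label names an E14.5 gonad, whereas titles and characteristics give day 7.

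Spots of a probe were averaged as log2 processed signal, leaving out control spots and 62 to 90 outlier spots per array (0 saturated), and the array's 75th percentile (1019 to 1676) was subtracted. Detection on an array required Feature Extraction's above-background mark on 0.5 or more of a probe's spots. Probes were named by RefSeq accession through a table of assembly GRCm38.p6 (22951 of 41174 probes, 55.7%). The 27830 probes well above background on both arrays of a group were fitted with limma 3.58.1 in R 4.3.3 (lmFit, eBayes, no covariates, two-sided, Benjamini-Hochberg), and called at an adjusted p under 0.05. The fit was tested on simulated data in which few probes were changed. Of 50 probes with a true log2 change of −1, 26% were called, and of 50 with a change of 1, 14%. At −3 and 3 it was 100%, and 0.033% of unchanged probes were called. A far larger share of probes was called in the data, so these percentages need not hold there. All adjusted p-values of changes come from this limma fit, and errors of changes are its standard errors. Differences between probes of the same gene were fitted likewise on within-array differences.

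Named genes were all members, their listed receptors and partners, and up to 4 further called genes per pathway list with the largest change, by the brightest probe; some of these are not reported here. Members and lists were chosen with earlier results of these data known. Alternatives tried were other scalings, background correction, filters, probe summaries, moderation, a replicate block and each array left out.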

Additional observations from a re-analysis of the deposited data

How the results depend on the processing

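Every call of a member rests on few residual degrees of freedom, and with an array left out the lone array is assumed to vary like the other group. Leaving out each array in turn gave 641 to 5709 probes lower and 1166 to 4873 higher over all probes (5580 and 4331 as reported), 0 to 5 member probes lower (6 as reported) and 0 higher, and 3 to 59 list genes lower and 7 to 35 higher (53 and 29 as reported). Scaling to spike-in spots gave 17586 lower and 716 higher over all probes, 12 member probes lower, and 157 list genes lower and 6 higher. Without a filter on dim probes the numbers lower were 3608 probes, 3 member probes and 33 list genes, with 3326 probes higher. Averaging the probes of a gene left 3 of the 10 genes lower.

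The replicate numbers are shared by the groups, but the labels do not say that they pair arrays. With the number as a replicate block 2702 probes were lower and 2874 higher, 1 member probe was lower (Cxcl12 NM_021704, −1.31) and 23 list genes were lower. Deviations of same-numbered arrays correlated at −0.38, and a crossed replicate block, added after seeing the data, gave 7944 probes lower and 5587 higher, 7 member probes lower and 1 higher, and 87 list genes lower and 38 higher.

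Quantile normalization, scaling to the median, the deposited value table, testing probes detected on all 4 arrays, the brightest probe of each gene, normexp background correction and moderation with trend gave 4 to 9 member probes lower and 0 higher. Normexp moved the median of all probes by 0.14.

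Among members and the brightest probes of named genes, the changes that turned sign under spike-in scaling were those of the dimmer Kitl probe (−0.77), Cxcl12 NM_013655 (−0.49), Acvr2b (−0.26), Acvr2a (−0.23), Ptch1 (−0.85), Smad4 (−0.079), Grb2 (−0.020) and Cdon (−0.19), all by the shared shift of −0.98, as did other probes of Smo (−0.75), Cxcr4 (−0.013), Creb1 (−0.45) and Smad4 (−0.42). With probes averaged the dimmer Kitl probe became −0.090, Cxcl12 NM_013655 −0.41 and Gnas 0.12, and under normexp Acvr1b became 0.25. With single arrays left out, changes that crossed 0 ran from −0.15 to 0.56 for the dimmer Kitl probe, −1.25 to 0.65 for Gdnf, −0.53 to 0.79 for Ptch1, −0.80 to 0.038 for Acvr1b and −0.33 to 0.031 for Fstl3. Beyond the shared shift and the smaller numbers of arrays, the cause was not tested. All arrays shared 1 slide and 1 scan, so that block was not run. The dimmer Kitl probe and Gdnf in FLAG IP replicate 1 were the member values nearest to background, at 2.54 to 3.46 and 2.61 times the local background.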
